A study of Mus musculus with 6 samples.

Results

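Oxidative phosphorylation is run by complexes I to V of the mitochondrial inner membrane, and the genes of their subunits lie in both the nuclear and the mitochondrial genome. The members described here are the protein-coding genes whose names mark them as such subunits: names beginning with Nduf and a letter a, b, c, s or v before a digit (complex I, NADH dehydrogenase), Sdha to Sdhd (complex II, succinate dehydrogenase), Uqcr (complex III, cytochrome bc1), Cox4 to Cox8 (complex IV, cytochrome c oxidase), Atp5 (complex V, ATP synthase) and mt- (mitochondrial genome). The rule found 98 of the 54532 genes in the table, 85 of them nuclear and 13 mitochondrial, from names alone. Complexes are given as the names assign them, although Ndufa4 is known as a subunit of complex IV, Cox7a2l as a factor that joins complexes III and IV into supercomplexes, and Atp5s as a coupling factor.

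Complexes I, III and IV pass electrons from NADH to oxygen and pump protons out of the matrix, complex II feeds in electrons from succinate without pumping, and complex V lets protons flow back to make ATP. The mitochondrial genome is transcribed by its own polymerase as long precursors and supplies hydrophobic core subunits of every complex but complex II, while nuclear genes supply the rest, so each mixed complex needs both sources. In skeletal stromal cells, reliance on glycolysis and on respiration is known to shift as the cells differentiate.

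RNA was sequenced from mouse Prx1+ mesenchymal stromal cells (MSCs) of 2 genotypes, Zeb1Prx1 (Prx1-Cre+; ROSA-YFP; Zeb1fl/fl) and WT (Prx1-Cre+; ROSA-YFP; Zeb1wt/wt), with 3 untreated libraries each; the ages of the mice are not stated. Both genotypes therefore carried the Cre transgene, which is driven by a Prx1 enhancer active in limb mesenchyme, and the YFP reporter, and they differed in loxP-flanked Zeb1 alleles, which Cre deletes. Chips of femur and tibia were digested with collagenase II and cultured, and the outgrowing cells were sorted for the fluorescent signal. The labels do not say whether the replicates were separate mice or cultures, and the p-values here thus speak only of the spread among these 6 libraries, which may be technical.

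Zeb1, a zinc-finger transcription factor and the targeted gene, had 1.92, 1.59 and 2.84 FPKM (fragments scaled by gene length and by library total) in the Zeb1Prx1 libraries, against 6.61, 10.3 and 7.12 FPKM in the WT libraries. Each Zeb1Prx1 value was lower than each WT value, with a log2 change of -1.53 (SE 0.22, limma, adjusted p = 0.229). Libraries held 14724357 to 18354894 assigned fragments. Zeb1Prx1 replicate 2 stood apart: its FPKM values summed to 372566, against 282995 and 312038 in the other Zeb1Prx1 libraries and 278987 to 289879 in the WT libraries, and it had 20102 genes above 0, against 21220 and 21331 in the other Zeb1Prx1 libraries and 21464 to 21677 in the WT libraries. Of 14 markers of the labelled cell type, all had fragments in every library. Tested were 12 of them, 7 with a log2 change above 0 and 5 below. Summed over the 14, levels were 2864 to 4901 FPKM in Zeb1Prx1 and 2372 to 2975 FPKM in WT libraries. The median marker of this type went the other way, with 18.3 to 24.5 FPKM in Zeb1Prx1 and 21.6 to 31.0 FPKM in WT libraries. The 18 macrophage markers were also present, with larger sums than those of the labelled type. These sums were 11043 to 22654 FPKM in Zeb1Prx1 libraries, highest in replicate 2, and 13356 to 16463 FPKM in WT libraries. The median macrophage marker had 158 to 194 FPKM in Zeb1Prx1 and 241 to 276 FPKM in WT libraries. In Zeb1Prx1 replicate 2, 7 of the 18 lay above all WT values and 7 lay below them. In replicates 1 and 3, 17 and 14 lay below all WT values. Of the 18, 15 had a log2 change below 0, and without replicate 2, 0 had one above 0. Summed chondrocyte markers had 148 to 2367 FPKM in Zeb1Prx1 and 14 to 201 FPKM in WT libraries, osteoblast markers, with all 6 tested above 0, had 2811 to 4499 FPKM in Zeb1Prx1 and 1844 to 4161 FPKM in WT libraries, and erythroid and lymphocyte markers stayed under 1 FPKM in sum in every library, with Hba-a1 at 0. The osteoblast sums rest on few of the genes. The median osteoblast marker had 3.08 to 12.2 FPKM in Zeb1Prx1 and 3.15 to 4.25 FPKM in WT libraries. In Zeb1Prx1 replicate 3, 1 of the 6 tested lay above all WT values and 2 lay below them. The part of these other cell types in the subunit values was not tested, and in bulk RNA fewer cells of a type and less RNA per cell cannot be told apart.

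The summed level of the nuclear subunit genes lay within or above the WT range in Zeb1Prx1 libraries, and that of the mitochondrial ones lay below it. Summed over the 85 nuclear members, levels were 3096, 6452 and 4208 FPKM in the Zeb1Prx1 libraries, against 3102, 2993 and 2845 FPKM in the WT libraries. Zeb1Prx1 replicate 1 lay within the WT range, and replicates 2 and 3 lay above it. Summed over the 13 mitochondrial members, levels were 9338, 7011 and 9469 FPKM in the Zeb1Prx1 libraries, against 10908, 10477 and 9494 FPKM in the WT libraries. All of the Zeb1Prx1 sums lay below all of the WT sums, although replicate 3 missed the lowest WT library by little. The ratio of the mitochondrial to the nuclear sum was 3.02, 1.09 and 2.25 in the Zeb1Prx1 libraries, against 3.52, 3.50 and 3.34 in the WT libraries, so that the genotypes did not overlap in this ratio. An exact permutation test over 3 against 3 libraries cannot give a two-sided p below 0.1, and none is given for these sums, since they are scores over the members.

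**Figure D1:**
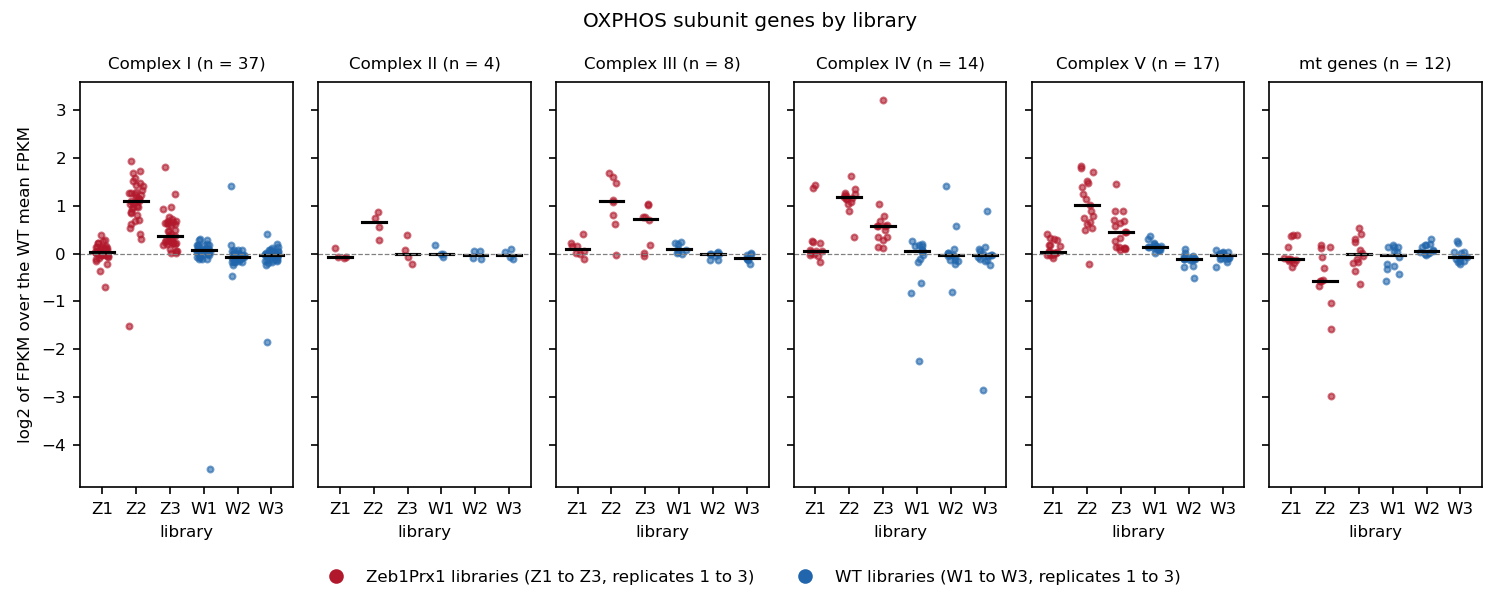
Log2 of each tested member's FPKM over its WT mean FPKM (vertical axis), by library (horizontal axis), for the nuclear members of complexes I to V and for the mitochondrial (mt) genes; points are genes and bars are medians. In every nuclear panel the bar of Zeb1Prx1 replicate 2 is the highest and that of replicate 1 lies near WT, while in the mt panel the bar of replicate 2 is the lowest.

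Of the 85 nuclear members, 80 passed the filter of at least 1 FPKM in at least 3 of the 6 libraries and were tested. In each of the 80 the log2 change was positive, from 0.01 to 1.98, and its median was 0.52, against a median of 0.02 over the 12534 genes tested. No member passed an adjusted p of 0.05 in limma, nor did any of the 12534 genes (background 0.0%), and 0 genes were called by voom run on the recovered fragment numbers. The smallest adjusted p of a nuclear member was 0.281. At an unadjusted p under 0.05, 17 nuclear members were higher in Zeb1Prx1 and 0 were lower (voom, 16 and 0, with a background of 7.75% and 7.31%), where 8.15% of all tested genes were higher and 6.98% were lower (1022 and 875 genes; with libraries at an equal FPKM sum, 614 and 1270, or 4.9% and 10.1%, of which 16 and 0 were nuclear members). The 17 are 21.2% of the 80, whose median gene length was 1578 bases, against 3989 bases for all tested genes. Counts within classes of gene length are given with the length values further below. All 3 Zeb1Prx1 values exceeded all 3 WT values for 24 nuclear members, against a background of 12.6%, and the reverse held for 0, against a background of 11.8%.

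How far each Zeb1Prx1 library stood from WT differed. The median ratio of a nuclear member's FPKM to its WT mean was 1.03 in replicate 1, 2.17 in replicate 2 and 1.35 in replicate 3. Above all WT values lay 28 members (35%) in replicate 1, 76 (95%) in replicate 2 and 59 (73.8%) in replicate 3, while over all tested genes the shares were 25.6%, 39.9% and 33.5%. Zeb1Prx1 replicate 2 held the highest of the 6 values for 75 of the 80 members. With that library left out, 75 of 80 log2 changes were above 0 with a median of 0.24, 8 members had an unadjusted p under 0.05, all of them higher (background 7.35%, and 6.75% lower), 0 passed the adjusted threshold (background 0.00813%), and 25 members did not overlap, all higher (background 17.4%).

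Libraries rescaled to an equal FPKM sum moved the median log2 change of all tested genes to -0.12, and that of the nuclear members to 0.35, with 75 of 80 above 0. Setting the median of each of 20 bins of gene length to the same level in every library gave a nuclear median of 0.25, with 74 of 80 above 0 and 11 at an unadjusted p under 0.05, all higher (background 6.73%, and 7.23% lower). By complex, the median log2 change of the FPKM as deposited was 0.51 over 37 members of complex I, 0.20 over 4 of complex II, 0.61 over 8 of complex III, 0.57 over 14 of complex IV and 0.48 over 17 of complex V. Without Zeb1Prx1 replicate 2 these medians were 0.21, -0.04, 0.37, 0.31 and 0.24, so that the one of complex II turned. Under length bins they were 0.26, 0.06, 0.28, 0.25 and 0.35, so that complex V had the highest and complex II still the lowest. The median gene lengths of complexes I to V were 1495, 2744.5, 1300, 1119.5 and 2039 bases. The differences between complexes were not tested.

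In complex I, 6 of 37 members were higher in Zeb1Prx1 at an unadjusted p under 0.05 (background 8.15%) and 0 were lower (background 6.98%). The 6 were Ndufa1, Ndufb6, Ndufs6, Ndufb3, Ndufs5 and Ndufa7. Ndufa1 (ENSMUSG00000016427) is a short accessory subunit encoded on the X chromosome and had 37.3, 89.0 and 75.3 FPKM in Zeb1Prx1 libraries, against 31.4, 31.8 and 32.3 FPKM in WT libraries. The WT values were nearly alike and every Zeb1Prx1 value lay above them, with replicate 1 the closest (log2 change 0.96, SE 0.31, limma adjusted p = 0.286). Ndufs6, an accessory subunit that carries a zinc ion, had 15.1, 48.1 and 24.5 FPKM in Zeb1Prx1 libraries, against 13, 12.2 and 12.2 FPKM in WT libraries. Again no values overlapped, and replicate 2 was the highest by far (log2 change 1.02, SE 0.37, adjusted p = 0.302). Ndufb6, an accessory subunit of the membrane arm, had 25.1, 54.6 and 29.6 FPKM in Zeb1Prx1 libraries, against 20.8, 16.2 and 20.3 FPKM in WT libraries (log2 change 0.83, SE 0.29, adjusted p = 0.298). The most abundant nuclear member of the complex, Ndufa2, had 87.7, 272 and 132 FPKM in Zeb1Prx1 libraries, against 87.4, 77.9 and 82.2 FPKM in WT libraries. Replicate 1 of Zeb1Prx1 exceeded the highest WT value by a fraction of an FPKM, and the log2 change of 0.83 (SE 0.39) had an unadjusted p of 0.0722.

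Subunits of the catalytic core of complex I, which binds the flavin and the iron-sulphur clusters that carry electrons, include those encoded by Ndufs1 and Ndufs7. Ndufs1 had a log2 change of 0.09, which was -0.06 at an equal FPKM sum, and Ndufs7 one of 0.51, and neither had an unadjusted p under 0.05. The 7 nuclear core subunits, with a median length of 2178 bases, had a median log2 change of 0.41. For 28 other nuclear subunits of the complex, Ndufa4 and Ndufa4l2 left out, the medians were 1234 bases and 0.56. With length bins the medians of log2 change were 0.22 and 0.26, and the difference was not tested.

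Ndufa4l2, which is known as a target of the hypoxia-inducible factor HIF1 and lowers complex I activity, had 41.8, 23.8 and 240 FPKM in Zeb1Prx1 libraries, against 2.99, 182 and 18.9 FPKM in WT libraries. Both genotypes thus spanned low and high libraries, WT from 60 to 3064 fragments, and the log2 change of 1.38 had an SE of 1.43. Its paralogue Ndufa4 had 37.4, 81.3 and 48.1 FPKM in Zeb1Prx1 libraries, against 36.2, 34.6 and 33.1 FPKM in WT libraries, with no overlap (log2 change 0.59, SE 0.28, unadjusted p = 0.0715).

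Complex II, which belongs to both the respiratory chain and the tricarboxylic acid cycle and has only nuclear subunits, showed the smallest median. The membrane anchor Sdhd had 68.4, 107 and 82.3 FPKM in Zeb1Prx1 libraries, against 63.1, 66.0 and 60.3 FPKM in WT libraries. It was the only one of the 4 without overlap (log2 change 0.41, SE 0.20, unadjusted p = 0.0747). The iron-sulphur subunit Sdhb had 35.4, 68.1 and 31.9 FPKM in Zeb1Prx1 libraries, against 42.2, 34.7 and 34.1 FPKM in WT libraries. Only replicate 2 lay above WT, and the log2 change of 0.20 (SE 0.29) became -0.13 without it. The second anchor, Sdhc, had 26.7, 41.4 and 29.6 FPKM in Zeb1Prx1 libraries, against 27.8, 26 and 30.1 FPKM in WT libraries (log2 change 0.19, SE 0.19). Sdha, the flavoprotein that oxidises succinate, had 44.5, 58.2 and 45.2 FPKM in Zeb1Prx1 libraries, against 45.2, 49.2 and 48.4 FPKM in WT libraries, a log2 change of 0.04 (95% interval -0.35 to 0.43) that was -0.13 at an equal FPKM sum and -0.08 without replicate 2.

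In complex III, 4 of 8 members, all of them small subunits, were higher at an unadjusted p under 0.05 (background 8.15%). The same 4 did not overlap between the genotypes (background 12.6%). Uqcrh, the hinge protein at the cytochrome c docking site, had 51.9, 128 and 95.1 FPKM in Zeb1Prx1 libraries, against 46.3, 46.4 and 45.7 FPKM in WT libraries. Its WT values were nearly equal, so even replicate 1 of Zeb1Prx1 stood clear of them (log2 change 0.88, SE 0.32, limma adjusted p = 0.299). Uqcrq had 41.8, 95.5 and 53.4 FPKM in Zeb1Prx1 libraries, against 35.8, 31.2 and 26.8 FPKM in WT libraries (log2 change 0.92, SE 0.31, adjusted p = 0.290). Uqcr11, one of the smallest subunits of the complex, had 33.8, 93.4 and 58.8 FPKM in Zeb1Prx1 libraries, against 30.7, 28.0 and 28.5 FPKM in WT libraries (log2 change 0.95, SE 0.34, adjusted p = 0.299). Uqcr10 was the most abundant nuclear member of the complex, with 69.4, 136 and 101 FPKM in Zeb1Prx1 libraries, against 66.9, 62.0 and 57.6 FPKM in WT libraries (log2 change 0.66, SE 0.26, adjusted p = 0.313). In all of these the order of the Zeb1Prx1 libraries was replicate 2, then 3, then 1. The large core proteins differed less: Uqcrc2 had 26.1, 24.7 and 25.5 FPKM in Zeb1Prx1 libraries, against 25.9, 25.9 and 23.7 FPKM in WT libraries, a log2 change of 0.01 (95% interval -0.29 to 0.32) that was -0.15 at an equal FPKM sum. Its partner Uqcrc1 had a log2 change of 0.20 (SE 0.22), and -0.0060 without replicate 2. Uqcrc2 and Uqcrc1 are 2552 and 4135 bases long. Under length bins their log2 changes were -0.14 and 0.20, against 0.33 to 0.63 for the 4 small subunits above and 0.23 for Uqcrb (876 bases).

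**Figure D2:**
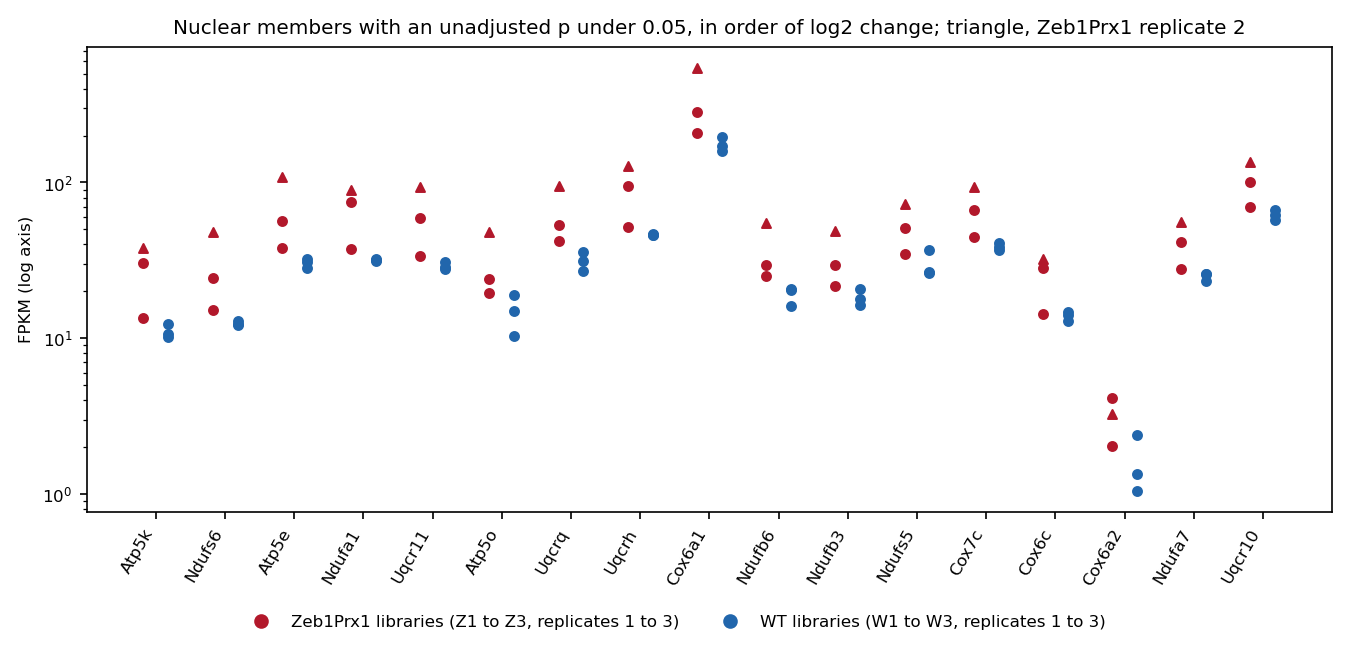
FPKM on a log axis (vertical) of the 17 nuclear members with an unadjusted p under 0.05 (horizontal), in order of their log2 change; points are libraries, Zeb1Prx1 left of WT for each gene, and triangles mark Zeb1Prx1 replicate 2. Replicate 2 is the highest library for 16 of the 17 genes, Cox6a2 being the exception, and Atp5k has the largest log2 change at 1.12.

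Complex IV had 14 tested nuclear members. At an unadjusted p under 0.05, 4 were higher in Zeb1Prx1 (background 8.15%) and 0 were lower (background 6.98%). Without overlap were 2 of the 14, both higher (background 12.6%), a share near that of all tested genes. Cox6a1 had the highest mean of all nuclear members, with 208, 543 and 283 FPKM in Zeb1Prx1 libraries, against 196, 160 and 173 FPKM in WT libraries. The lowest Zeb1Prx1 value lay just above the highest WT value (log2 change 0.85, SE 0.35, limma adjusted p = 0.328). Cox7c had 45.0, 94.0 and 67.0 FPKM in Zeb1Prx1 libraries, against 40.7, 37.1 and 38.4 FPKM in WT libraries (log2 change 0.75, SE 0.27, adjusted p = 0.298). Cox6c had 14.3, 32.1 and 28.4 FPKM in Zeb1Prx1 libraries, against 12.8, 14 and 14.8 FPKM in WT libraries, so replicate 1 lay within the WT range (log2 change 0.73, SE 0.29, adjusted p = 0.322).

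Several subunits of complex IV exist as a common form and a form restricted to some tissues. Cox4i2, the form induced in lung and by low oxygen, had 8.05, 3.80 and 27.8 FPKM in Zeb1Prx1 libraries, against 0.624, 7.92 and 0.413 FPKM in WT libraries. Its largest values were in Zeb1Prx1 replicates 1 and 3 and in WT replicate 2, and replicate 2 of Zeb1Prx1 lay below that WT library (log2 change 1.98, SE 0.87, unadjusted p = 0.0582). Its common counterpart Cox4i1 had 131, 332 and 160 FPKM in Zeb1Prx1 libraries, against 137, 126 and 128 FPKM in WT libraries (log2 change 0.54, SE 0.35). Zeb1Prx1 replicate 3 and WT replicate 2, the libraries highest in Cox4i2, were also the highest of their genotype in Ndufa4l2; over these 6 libraries no test of that likeness was made. Cox6a2, the heart and skeletal muscle form, had 4.12, 3.26 and 2.02 FPKM in Zeb1Prx1 libraries, against 1.04, 2.39 and 1.34 FPKM in WT libraries (log2 change 0.67, SE 0.27, adjusted p = 0.321). The genotypes overlapped for Cox6a2, and its unadjusted p in voom was 0.062. Cox6b2, the testis form, had 2.08, 3.71 and 2.60 FPKM in Zeb1Prx1 libraries, against 0.986, 0.998 and 3.23 FPKM in WT libraries (log2 change 0.54, SE 0.33). These forms rest on few fragments a library, 13 to 45 for Cox6a2, 17 to 74 for Cox6b2 and 5 to 335 for Cox4i2. The forms Cox7a1, Cox8b, Cox7b2 and Cox8c did not pass the filter: Cox7a1, the heart and muscle form, had 0.233, 2.39 and 1.10 FPKM in Zeb1Prx1 libraries, against 0.408, 0.365 and 0.487 FPKM in WT libraries, Cox8b was at 0 in all but WT replicate 3, and Cox7b2 and Cox8c were at 0 in all 6.

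In complex V, 3 of 17 tested members were higher at an unadjusted p under 0.05 (background 8.15%) and 0 were lower (background 6.98%). Atp5k (ENSMUSG00000050856, mm10 chromosome 5, 108433244 to 108434448, minus strand), which encodes the e subunit of the membrane-bound Fo part at the interface of ATP synthase dimers, had 13.4, 38.1 and 30.5 FPKM in Zeb1Prx1 libraries, against 12.3, 10.7 and 10.1 FPKM in WT libraries. These rest on 96 to 423 fragments a library. The mean was 27.4 ± 12.6 FPKM in Zeb1Prx1 and 11.1 ± 1.14 FPKM in WT (SD, n = 3 each), and the log2 change of 1.12 (SE 0.36, 95% interval 0.27 to 1.96, limma adjusted p = 0.281) had the smallest p among the nuclear members. Atp5e, the epsilon subunit of the F1 stalk, had 38.1, 108 and 56.4 FPKM in Zeb1Prx1 libraries, against 32.1, 28.2 and 30.9 FPKM in WT libraries (log2 change 1.00, SE 0.36, adjusted p = 0.298). Atp5o, which encodes the oligomycin sensitivity-conferring protein that ties F1 to the peripheral stalk, had 19.5, 48.4 and 24.0 FPKM in Zeb1Prx1 libraries, against 18.9, 10.3 and 14.9 FPKM in WT libraries (log2 change 0.94, SE 0.36, adjusted p = 0.309). None of these overlapped between the genotypes, and a second row named Atp5o was at 0 in every library.

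The catalytic part of F1 differed less. Atp5a1, the alpha subunit and the most abundant nuclear member of the complex, had 147, 213 and 159 FPKM in Zeb1Prx1 libraries, against 153, 140 and 145 FPKM in WT libraries. Replicate 1 lay within the WT range (log2 change 0.22, SE 0.20), and under quantile scaling the log2 change was -0.12. Atp5b, the catalytic beta subunit, had a log2 change of 0.22 (SE 0.20). Atp5a1 and Atp5b are longer, at 3135 and 4237 bases, than Atp5e (1756 bases) and Atp5o (1972 bases). Under length bins the log2 changes were 0.11 for Atp5a1 and 0.21 for Atp5b, against 0.70 for Atp5e and 0.73 for Atp5o. The proton-carrying c-ring is encoded by Atp5g1, Atp5g2 and Atp5g3, whose mature proteins are the same. Atp5g1 had 10.0, 19.6 and 10.7 FPKM in Zeb1Prx1 libraries, against 11, 7.35 and 8.35 FPKM in WT libraries (log2 change 0.50, SE 0.27). Atp5g2 had 51.0, 77.3 and 56.2 FPKM in Zeb1Prx1 libraries, against 47.5, 41.0 and 46.2 FPKM in WT libraries (log2 change 0.43, SE 0.20). Atp5g3 had 43.1, 82.1 and 60.3 FPKM in Zeb1Prx1 libraries, against 50.8, 40.7 and 40.8 FPKM in WT libraries (log2 change 0.44, SE 0.25). Of the c-ring genes, Atp5g2 was the one without overlap. Processed pseudogenes can share fragments with these genes: 11 rows are named after members, the highest of them at 11.8 FPKM (Cox6c2 in WT replicate 3) and 5 at 0 in every library.

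The nuclear differences went with gene length. Among the members, the median difference was smaller in each longer class of length, and among other genes the classes under 2000 bases had higher medians than the longer ones. Nuclear members under 1000 bases had a median log2 change of 0.71 (20 members), against 0.22 for 1208 other tested genes of that length. From 1000 to under 2000 bases the medians were 0.56 for 31 members and 0.29 for other genes, and from 2000 to under 4000 bases they were 0.39 for 19 members and 0.12 for other genes. At 4000 bases or more they were 0.25 for 10 members and -0.11 for other genes. Members thus had a higher median than other genes in every class, a difference that was not tested. Spearman's rho between log2 change and length was -0.595 across the 80 members and -0.409 across 12442 other genes; genes within the same libraries are not independent, and library, depth and composition are common to all points. Of the 17 members with an unadjusted p under 0.05, 10 were under 1000 bases and 16 under 2000 bases. Under 1000 bases these were 10 of 20 members, against 222 of 1208 other genes higher at that threshold. From 1000 to under 2000 bases they were 6 of 31, against 255 of 1422. From 2000 to under 4000 bases they were 1 of 19, against 358 of 3571, and above that 0 of 10, against 170 of 6241. Higher without overlap in these classes were 9, 14, 1 and 0 members, against 256, 339, 575 and 385 other genes.

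**Figure D3:**
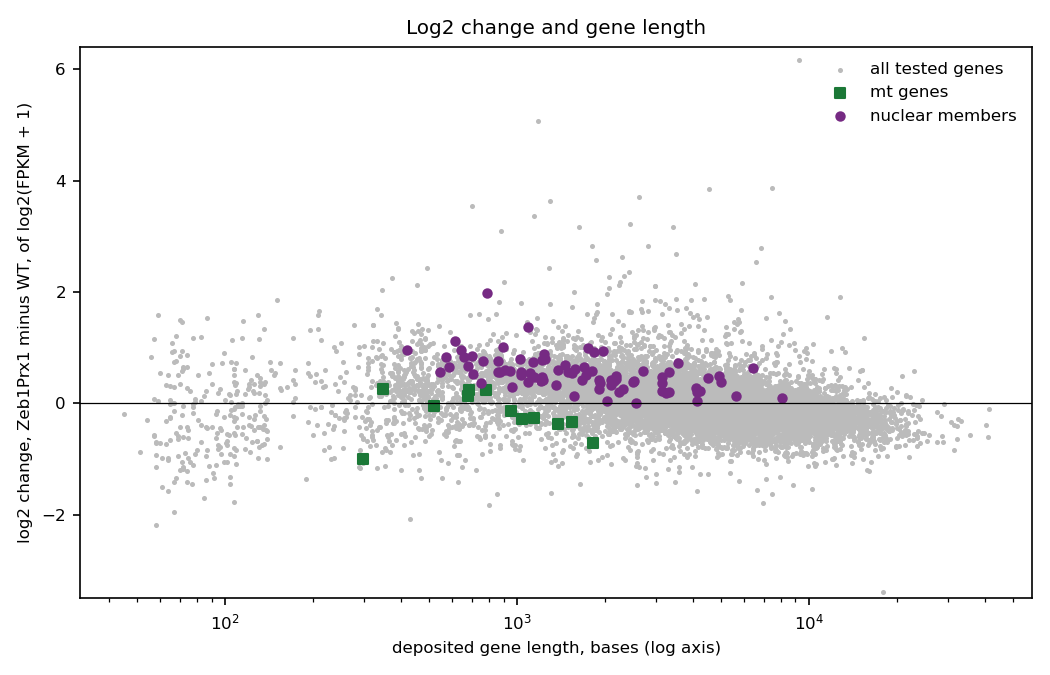
Log2 change, Zeb1Prx1 minus WT, of log2(FPKM + 1) (vertical axis) against the deposited gene length in bases on a log axis (horizontal); grey points are all tested genes, purple points the 80 nuclear members and green squares the 12 mt genes. The purple points all lie above 0 and come down toward it with length, and 8 of the 12 green squares lie below 0.

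The relation to length differed by library. In Zeb1Prx1 replicate 2 the ratio to the WT mean had a median of 2.35 over members under 1000 bases and 1.56 over members of 4000 bases or more, and for other genes 1.40 and 0.806. In replicate 3 the medians were 1.60 and 1.12 for members, and 1.18 and 0.922 for other genes. In replicate 1 they were 1.14 and 1.02 for members, and 1.07 and 0.963 for other genes. The median gene length weighted by FPKM was 2086 bases in replicate 2 of Zeb1Prx1, 2675 and 2545 bases in its replicates 1 and 3, and 2592 to 2642 bases in WT libraries. The part of transcript length in the nuclear differences was not tested beyond these values and the length-bin median of 0.25.

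**Figure D4:**
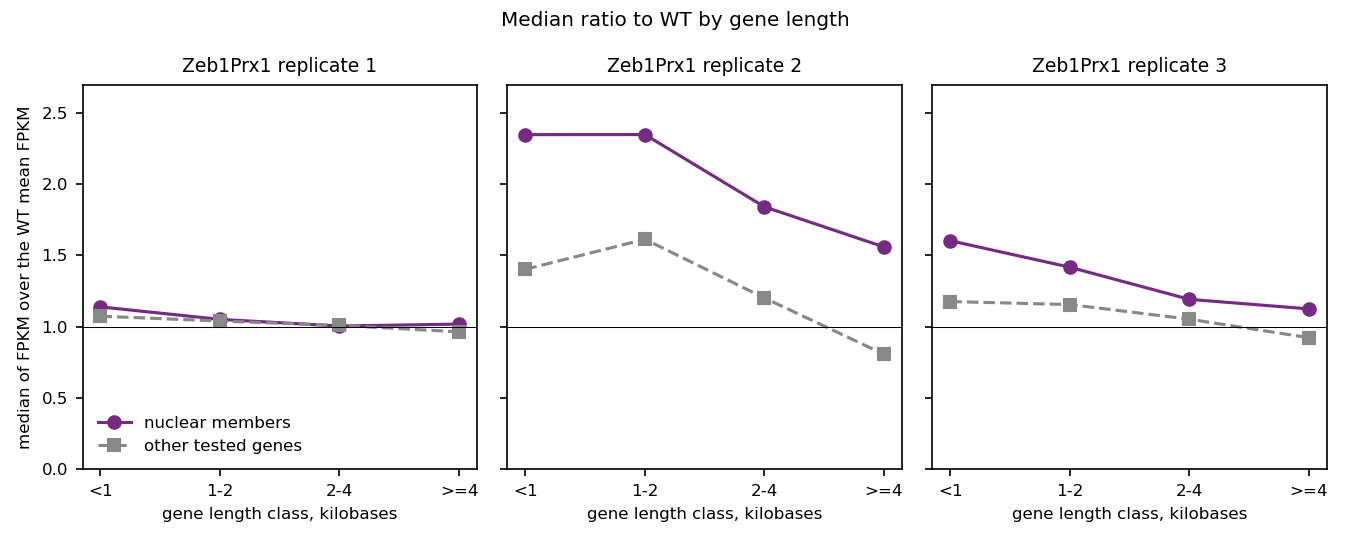
Median ratio of FPKM to the WT mean FPKM (vertical axis, from 0) by class of gene length in kilobases (horizontal axis), in 1 panel for each Zeb1Prx1 replicate; circles are nuclear members and squares are other tested genes. Replicate 2 has the steepest slope and the highest values, except for other genes of 4000 bases or more, where it has the lowest (0.806). The 2 lines nearly coincide in replicate 1.

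The promoters of nuclear subunit genes are known to bind NRF1, the ETS factor GABP and YY1, and 4 of them are shown, from members of complexes I, III, IV and V with no overlap between genotypes, chosen because their windows hold a match. The windows of Ndufa1, Ndufb6, Cox7c and Atp5e, which do not overlap either, hold none. They are the RefSeq windows (GRCm38.p6) from 250 bases before to 50 bases after the annotated start, on the coding strand, which is the minus strand for all 4, with matches in capitals. Motifs were searched on both strands: CGCATGCG, a palindrome, for NRF1, CCGGAAGT for GABP and AAGATGGC for YY1, which do not overlap in these windows.
Ndufs6 (chr13:73328433-73328732): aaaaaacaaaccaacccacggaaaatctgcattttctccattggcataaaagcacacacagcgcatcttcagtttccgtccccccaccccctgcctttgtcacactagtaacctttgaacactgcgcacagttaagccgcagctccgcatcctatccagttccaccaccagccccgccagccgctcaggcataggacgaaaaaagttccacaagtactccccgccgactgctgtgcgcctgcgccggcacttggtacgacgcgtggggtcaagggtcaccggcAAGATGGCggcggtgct
Uqcrh (chr4:116075021-116075320): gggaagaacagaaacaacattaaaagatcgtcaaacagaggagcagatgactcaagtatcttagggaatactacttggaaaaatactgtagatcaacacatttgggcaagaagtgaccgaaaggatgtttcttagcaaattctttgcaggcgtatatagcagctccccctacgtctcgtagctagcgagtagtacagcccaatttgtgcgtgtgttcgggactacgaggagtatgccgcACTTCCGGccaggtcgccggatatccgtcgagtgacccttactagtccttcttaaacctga
Cox6a1 (chr5:115348909-115349208): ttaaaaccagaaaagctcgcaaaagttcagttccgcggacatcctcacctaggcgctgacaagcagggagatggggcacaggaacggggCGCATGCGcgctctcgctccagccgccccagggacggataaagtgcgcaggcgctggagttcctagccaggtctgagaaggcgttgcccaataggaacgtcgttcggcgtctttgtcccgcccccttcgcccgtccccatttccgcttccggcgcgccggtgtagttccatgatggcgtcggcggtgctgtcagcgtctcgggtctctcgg
Atp5k (chr5:108434350-108434649): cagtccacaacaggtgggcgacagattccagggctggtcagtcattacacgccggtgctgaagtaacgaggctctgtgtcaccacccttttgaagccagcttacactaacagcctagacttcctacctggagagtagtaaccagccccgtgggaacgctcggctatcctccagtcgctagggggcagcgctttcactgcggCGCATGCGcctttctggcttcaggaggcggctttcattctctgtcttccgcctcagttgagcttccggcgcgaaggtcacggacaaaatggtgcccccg
Ndufs6 holds an AAGATGGC match near the end of the window, Uqcrh a CCGGAAGT match read on the other strand, and Cox6a1 and Atp5k a CGCATGCG match each.

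A window was found for 63 of the 80 tested members, 68 windows in all. CGCATGCG was in 13.2% of them (Ndufa8, Ndufa11, Uqcr11, Uqcrc1, Cox6a1, Atp5k, Atp5g2, Atp5j and Atp5l), against 3.87% of the windows of other tested genes and 1.87% of all 32851 windows. AAGATGGC was also in 13.2%, against 4.49% and 2.75%. CCGGAAGT was in 7.35%, against 8.33% and 3.89%. The matches describe the windows only. Members with a CGCATGCG match stood on both sides of an unadjusted p of 0.05, Atp5k, Uqcr11 and Cox6a1 below it and the other 6 above.

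The mitochondrial genes were measured at 2 very different levels. The 7 genes mt-Nd1, mt-Nd2, mt-Co1, mt-Nd4, mt-Nd5, mt-Nd6 and mt-Cytb had 264 to 4300 FPKM, while the 6 genes from mt-Co2 to mt-Nd4l in genome order (mt-Co2, mt-Atp8, mt-Atp6, mt-Co3, mt-Nd3 and mt-Nd4l) had 0 to 86.4 FPKM. The second group lies in a stretch with annotated copies on chromosome 1, mm10 positions 24611535 to 24616197 on the minus strand. Aligned by their GENCODE M21 transcripts, Gm28661 was identical to mt-Co2 in 681 of 681 bases, Gm10925 to mt-Atp6 in 678 of 678, Gm28437 to mt-Co3 in 783 of 783 and Gm10222 to mt-Nd4l in 294 of 294. Gm28438 matched mt-Nd3 in 344 of 345 bases. Parts of the neighbours are copied too, with 482 of 483 bases of Gm29216 in mt-Co1 (31.3% of that gene) and 876 of 876 bases of Gm28439 in mt-Nd4 (63.6% of it).

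The first 60 bases of mt-Nd3 and mt-Co2 and bases 1063 to 1122 of mt-Co1 are shown with their copies, as the stretches that do or do not tell them apart; capitals mark the base that differs.
mt-Nd3: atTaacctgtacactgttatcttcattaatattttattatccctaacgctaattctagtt
Gm28438: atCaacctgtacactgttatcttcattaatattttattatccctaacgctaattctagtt
mt-Co2: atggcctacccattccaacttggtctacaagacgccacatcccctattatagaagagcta
Gm28661: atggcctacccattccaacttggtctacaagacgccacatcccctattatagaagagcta
mt-Co1: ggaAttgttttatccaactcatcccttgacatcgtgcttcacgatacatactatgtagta
Gm29216: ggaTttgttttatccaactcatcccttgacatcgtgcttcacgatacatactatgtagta
Counted from 1 at the start of the mitochondrial gene, with its base first, the differences are T3C in Gm28438 and A1066T in Gm29216. Between mt-Co2 and Gm28661 no base differs, so a fragment from inside them cannot be given to one or the other by sequence. How the authors' counting placed such fragments is not given in the sources used here, and the levels of the 6 genes are uncertain to that extent.

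Of the 12 mitochondrial members tested, 8 had a log2 change below 0, with a median of -0.19 and a range from -1.01 to 0.26, and 0 had an unadjusted p under 0.05 in limma or in voom. With libraries at an equal FPKM sum the median was -0.36, where all tested genes had -0.12, with length bins it was -0.53, and without Zeb1Prx1 replicate 2 it was -0.07. The 7 members without a full copy on chromosome 1 were all below 0, with a median of -0.29, or -0.15 without replicate 2, and the 5 tested with a full copy had a median of 0.23, with mt-Nd4l as the exception at -1.01. No values overlapped for 2 mitochondrial members, both lower in Zeb1Prx1 (background 11.8%), and for 0 in the other direction (background 12.6%).

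Complex I takes 7 subunits from the mitochondrial genome, which form its proton-pumping membrane arm. mt-Nd5 (ENSMUSG00000064367, positions 11742 to 13565) had 687, 264 and 612 FPKM in Zeb1Prx1 libraries, against 749, 872 and 743 FPKM in WT libraries. Every Zeb1Prx1 value was below every WT value and replicate 2 was the lowest by far, with a mean of 521 ± 226 FPKM in Zeb1Prx1 and 788 ± 72.8 FPKM in WT (SD, n = 3 each), a log2 change of -0.71 (SE 0.39, limma adjusted p = 0.392) and -0.28 without replicate 2. mt-Nd4 had 557, 295 and 615 FPKM in Zeb1Prx1 libraries, against 616, 642 and 558 FPKM in WT libraries. Here too replicate 2 was low, but replicate 1 lay just below the WT range and replicate 3 within it (log2 change -0.38, SE 0.32). mt-Nd2 had 600, 493 and 705 FPKM in Zeb1Prx1 libraries, against 805, 750 and 626 FPKM in WT libraries (log2 change -0.29, SE 0.24). mt-Nd1 had 1380, 1243 and 1617 FPKM in Zeb1Prx1 libraries, against 1740, 1511 and 1377 FPKM in WT libraries (log2 change -0.13, SE 0.25). The genotypes overlapped for both, with replicate 2 the lowest library. mt-Nd6, the one subunit gene on the other strand of the genome, had 816, 1006 and 787 FPKM in Zeb1Prx1 libraries, against 984, 891 and 797 FPKM in WT libraries. It was the only mitochondrial member in which replicate 2 was highest, with a log2 change of -0.04 (SE 0.23), and without a stated use of strand its fragments cannot be told from those of transcripts across it.

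Of the complex I genes with a full copy, mt-Nd4l had 12.4, 1.68 and 8.60 FPKM in Zeb1Prx1 libraries, against 9.93, 16.4 and 13.6 FPKM in WT libraries, from only 9 to 75 fragments a library. Replicate 2 was again far below the rest (log2 change -1.01, SE 0.57). Its copy Gm10222 had 7.62, 6.23 and 4.45 FPKM in Zeb1Prx1 libraries, against 7.99, 6.86 and 6.87 FPKM in WT libraries. mt-Nd3 had 19.3, 16.3 and 17.5 FPKM in Zeb1Prx1 libraries, against 12.2, 16.8 and 15.0 FPKM in WT libraries (log2 change 0.26, SE 0.16). The copy Gm28438 had 7.76, 32.2 and 18.6 FPKM in Zeb1Prx1 libraries, against 7.13, 2.45 and 1.89 FPKM in WT libraries, with no overlap. The sum of the 2 rows was 27.1, 48.4 and 36.1 FPKM in Zeb1Prx1 libraries, against 19.4, 19.3 and 16.9 FPKM in WT libraries, so the pair separated the genotypes while the mitochondrial row alone did not. The sums of the other 4 genes with a full copy and their copies overlapped between the genotypes.

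In complex III, mt-Cytb, the cytochrome b at the site of quinol oxidation, had 1363, 974.7 and 1332 FPKM in Zeb1Prx1 libraries, against 1596, 1468 and 1284 FPKM in WT libraries. The genotypes overlapped (log2 change -0.26, SE 0.26). In complex IV, mt-Co1, which holds the site of oxygen reduction and was the most abundant member of all, had 3751, 2593 and 3606 FPKM in Zeb1Prx1 libraries, against 4300, 4165 and 3932 FPKM in WT libraries. Every Zeb1Prx1 value was lower than every WT value, with a mean of 3317 ± 631 FPKM in Zeb1Prx1 and 4132 ± 186 FPKM in WT (SD, n = 3 each), but the log2 change of -0.34 had an SE of 0.31 (adjusted p = 0.585). mt-Co2, which receives electrons from cytochrome c, had 76.5, 76.2 and 86.4 FPKM in Zeb1Prx1 libraries, against 46.6, 78.8 and 83.8 FPKM in WT libraries (log2 change 0.23, SE 0.25). WT replicate 1 was the low library, and without it the log2 change was -0.03. mt-Co3 had 34.5, 25.6 and 35.8 FPKM in Zeb1Prx1 libraries, against 21.7, 27.5 and 31.6 FPKM in WT libraries (log2 change 0.24, SE 0.20). In complex V, mt-Atp6, part of the proton channel, had 41.4, 21.1 and 46.0 FPKM in Zeb1Prx1 libraries, against 27.0, 35.8 and 31.7 FPKM in WT libraries, a log2 change of 0.13 (SE 0.30) that was -0.03 at an equal FPKM sum. Replicate 2 of Zeb1Prx1 was the lowest library for mt-Atp6 and the other 2 were the highest. mt-Atp8, which overlaps mt-Atp6, had 0.610, 0.544 and 1.93 FPKM in Zeb1Prx1 libraries, against 0, 0.956 and 1.60 FPKM in WT libraries, and did not pass the filter.

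**Figure D5:**
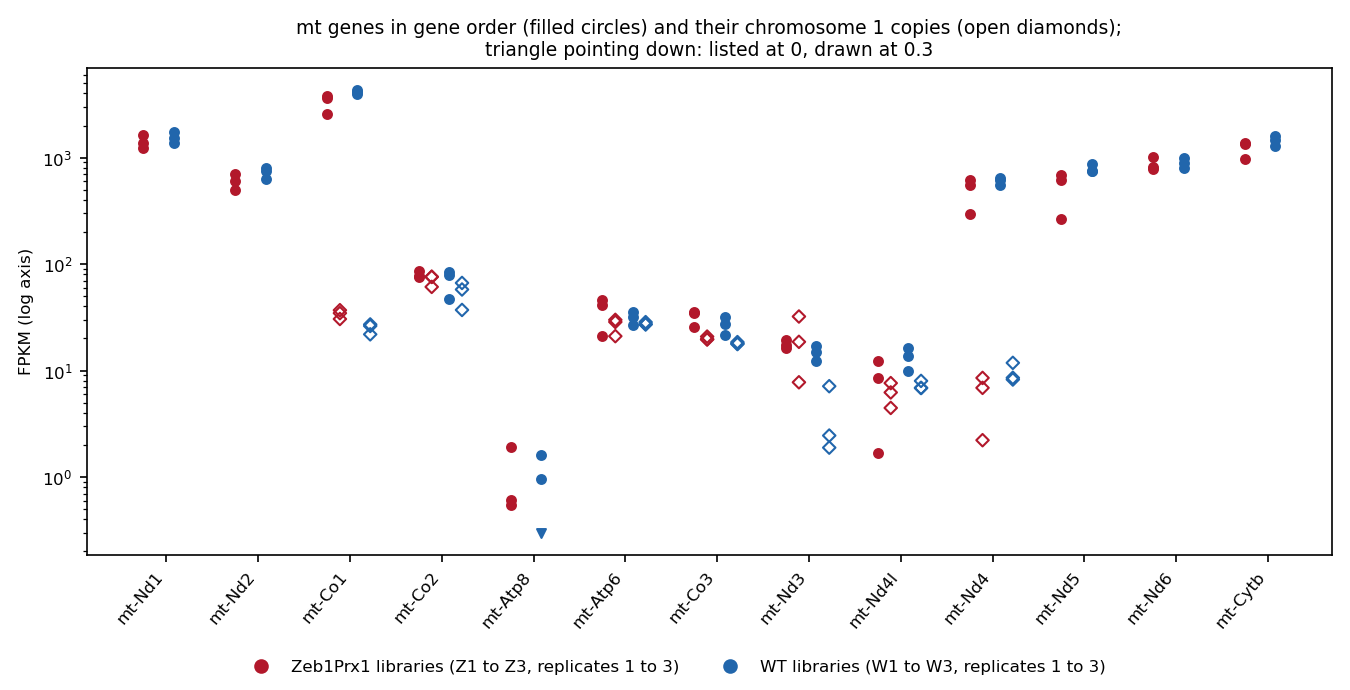
FPKM on a log axis (vertical) of the 13 mt genes in genome order (horizontal, filled circles) and of their chromosome 1 copies (open diamonds) in each library, Zeb1Prx1 left of WT; a triangle marks mt-Atp8 listed at 0 in WT replicate 1. The 6 genes from mt-Co2 to mt-Nd4l lie at 86.4 FPKM or less, while the other 7 genes lie at 264 FPKM or more.

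Lists of genes that build or serve the complexes had median log2 changes from 0.18 to 0.39, against 0.02 for all tested genes. With length bins the lists had medians from 0.07 to 0.38, against 0.004 for all tested genes. The differences between these lists and all genes were not tested. Their counts stand beside the 8.15% of all genes that were higher and the 6.98% that were lower at an unadjusted p under 0.05. Complex I assembly factors had a median of 0.39 over 16 tested, with 5 higher and 0 lower at that threshold. Ndufaf2, an assembly chaperone for complex I, had 3.18, 4.3 and 3.34 FPKM in Zeb1Prx1 libraries, against 2.26, 1.27 and 1.68 FPKM in WT libraries (log2 change 0.76, SE 0.19, adjusted p = 0.264), and Ndufaf5 had a log2 change of 0.67 (SE 0.19). Assembly factors of complexes II and III had a median of 0.28 over 8, with 2 higher, Sdhaf4 and Uqcc3, and 0 lower. Complex IV assembly factors had a median of 0.31 over 18, with 13 above 0 and 5 below, and with 3 higher, Cox16, Cox11 and Cox14, and 1 lower, Coa5 (log2 change -0.36). Cox16 had 1.05, 2.25 and 1.29 FPKM in Zeb1Prx1 libraries, against 0.117, 0.381 and 0.417 FPKM in WT libraries. It passed the filter through the Zeb1Prx1 libraries alone, and its place among the 3 therefore shows nothing. Cox11, which delivers copper, had a log2 change of 0.64 (SE 0.21). The 5 ATP synthase assembly factors had a median of 0.18 with 0 at that threshold, Tmem242 and Fmc1 having the smallest p. Respiratory chain proteins outside the name rule (Ndufab1, Cyc1, Cycs, Dmac2, Minos1 and Usmg5) had a median of 0.34 over 6, with 1 higher, Usmg5, at 98.4, 243 and 156 FPKM in Zeb1Prx1 libraries, against 96.6, 84.9 and 77.0 FPKM in WT libraries; Minos1 had an unadjusted p of 0.0539. Without Zeb1Prx1 replicate 2 the medians of these lists were 0.21 for complex I, 0.18 for complexes II and III and 0.07 for complex IV. They were 0.07 for ATP synthase and 0.19 for the proteins outside the name rule. The counts higher were then 4, 1, 1, 0 and 0. Under length bins the medians in the same order were 0.20, 0.20, 0.10, 0.07 and 0.38, with 3, 0, 1, 0 and 0 higher. The median gene lengths in that order were 2734, 2341, 2376.5, 1837 and 2893 bases.

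Regulators and neighbouring pathways had medians from 0.09 to 0.26. Regulators of mitochondrial biogenesis and transcription had a median log2 change of 0.09 over 17, with 1 higher and 1 lower at an unadjusted p under 0.05, shares near those of all genes. Twnk, the mitochondrial DNA helicase, had 5.03, 5.60 and 4.09 FPKM in Zeb1Prx1 libraries, against 3.79, 2.37 and 3.68 FPKM in WT libraries (log2 change 0.47, SE 0.19). Polrmt, the mitochondrial RNA polymerase, had 7.19, 7.03 and 6.33 FPKM in Zeb1Prx1 libraries, against 8.78, 8.69 and 8.35 FPKM in WT libraries (log2 change -0.29, SE 0.12, adjusted p = 0.329). Both were without overlap, Twnk higher and Polrmt lower in Zeb1Prx1. Enzymes of the tricarboxylic acid cycle had a median of 0.15 over 16 with 0 in either direction, Suclg1 and Pdhb having the smallest p. The adenine nucleotide and phosphate carriers and porins had a median of 0.26 over 6, with 1 higher, Slc25a4 (log2 change 0.65, SE 0.27), while Vdac1 had 0.25 (SE 0.16). Without Zeb1Prx1 replicate 2 the medians were -0.04 for the regulators, 0.09 for the tricarboxylic acid cycle and 0.11 for the carriers. These lists hold longer genes than the nuclear subunits, with median lengths of 4685, 4145 and 3694.5 bases in that order, against 1578 bases. Under length bins their medians were -0.0013, 0.15 and 0.22, against 0.25 for the nuclear subunits, and the differences were not tested.

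Genes of mitochondrial and cytosolic ribosomal proteins had median lengths of 2255 and 1684 bases, against 1578 bases for the nuclear subunits and 3989 bases for all tested genes. Proteins of the mitochondrial ribosome, which translates the mt genes, had a median of 0.36 over 77, with 76 above 0, 14 higher and 0 lower at an unadjusted p under 0.05, Mrps34 and Mrpl17 having the smallest p; without Zeb1Prx1 replicate 2 the median was 0.16, with 8 higher. Those of the cytosolic ribosome had a median of 0.68 over 87, all above 0, with 27 higher and 0 lower. Without Zeb1Prx1 replicate 2 there were also 27 higher. The background for both lists was 8.15% higher and 6.98% lower, and 7.35% higher without that library. Under length bins the medians were 0.21 for the mitochondrial and 0.42 for the cytosolic list. Higher at that threshold were then 6 of 77 and 25 of 87, against a background of 6.73%. Higher in Zeb1Prx1 without overlap were 64 cytosolic and 28 mitochondrial ribosomal genes (background 12.6%), and the reverse held for 0 and 1 (background 11.8%). The 2 cytosolic ones with the smallest p, Rps12-ps3 and Rps27rt, are retrocopies that can share fragments with their parent genes. The median ratio to the WT mean was 1.24, 2.61 and 1.27 in the Zeb1Prx1 replicates for cytosolic ribosomal genes, and 1.03, 2.17 and 1.35 for the nuclear subunits; without replicate 2, the median log2 changes were 0.31 and 0.24.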

How the data were processed

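RNA-seq of 6 libraries, 3 Zeb1Prx1 and 3 WT, was read from the deposited table of 54532 genes. Its values are FPKM as the authors computed them, per the file headers, beside gene name, biotype, coordinates and length. The libraries were read as 150 bp pairs, per the labels, and per the submitters' processing notes the genome was mm10. Which aligner and counter were used, and whether strand was counted, is not given in the sources used here.

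Multiplying FPKM by gene length gave whole numbers of a step fixed within each library in 127408 of 127408 non-zero values (relative tolerance 1e-06), and so fragment numbers, 14724357 to 18354894 in sum per library.

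The test was limma 3.58.1 (R 4.3.3) with intensity trend on log2(FPKM + 1), a scale that understates changes of low genes, without a block, over the 12534 genes with at least 1 FPKM in at least 3 libraries, with Benjamini-Hochberg adjustment over all of them and a threshold of 0.05. The test was checked on simulated data with the same relative spread for every gene and no deviant library. That check does not speak for a library like Zeb1Prx1 replicate 2. Members and lists are described by counts and medians, with no test over a list. The members, gene lists and alternatives were chosen with earlier results of these data known. Genes named are Zeb1, every mt gene, in each complex the most abundant member and the 3 with the smallest p, the isoform list, and the 2 with the smallest p in each context list; other genes named, among them Ndufs1, Ndufs7, Ndufa4, Sdha, Uqcrc1, Uqcrc2, Cox4i1 and Atp5b, were added after their values were seen.

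As alternatives, the pseudocount was 0.1 or 0.5 and the filter was dropped or set to a mean FPKM of at least 5; the others were 4 other scalings (equal FPKM sum, the same outside the mitochondrial genome, median of ratios and quantile), 20 bins of gene length, protein-coding genes alone, a replicate block, no trend, library weights, voom on the recovered fragments with TMM scaling, and each library left out in turn. After the data were seen, 2 more were added, the counts of members without overlap when Zeb1Prx1 replicates 2 and 3 were left out and the mitochondrial median without members that have a full copy. Promoters came from RefSeq (GRCm38.p6) and transcripts from GENCODE M21 (GRCm38), aligned with Biopython 1.88. For NRF1, a longer form that was in fewer windows and a form with a free centre that was in more were counted first, and neither is reported. Some items are not reported here.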

Additional observations from a re-analysis of the deposited data

How the results depend on the processing

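No member passed an adjusted p of 0.05 under any alternative tried; the smallest adjusted p of a member was 0.0505, with library weights. The nuclear median stayed above 0 and the mitochondrial median below 0 under all alternatives run, though the mitochondrial one ranged from -0.53 with length bins to -0.065 with library weights and was -0.073 without Zeb1Prx1 replicate 2. The nuclear count at an unadjusted p under 0.05 (17) was 11 with length bins, 41 with library weights and 4 to 47 when 1 library was left out, 47 without Zeb1Prx1 replicate 1, 8 without Zeb1Prx1 replicate 2, 5 without Zeb1Prx1 replicate 3, and 6, 7 and 4 without WT replicates 1, 2 and 3; for mt genes it was 0 to 1 in each direction. The median log2 change of nuclear minus mitochondrial members was 0.71, and 0.31 without Zeb1Prx1 replicate 2. Members without overlap numbered 24, 25 without Zeb1Prx1 replicate 2, and 28 with replicate 1 alone against WT, where 35% of members and 25.6% of all genes lay above WT.

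Over all genes, 447 passed the adjusted threshold with library weights, which gave Zeb1Prx1 replicate 2 a weight of 0.226 and replicate 3 a weight of 2.82, and 0 to 1 when a library was left out. Genes higher at an unadjusted p under 0.05 (1022) numbered 681 at a mean of at least 5 FPKM, 614 at an equal FPKM sum, 590 at an equal sum outside the mitochondrial genome, 2014 with library weights and 661 to 1445 with a library left out; lower ones (875) numbered 1330 with no filter, 572 with the replicate block, 1852 with library weights and 450 to 1376 with a library left out. At an equal FPKM sum, 1270 were lower, against 614 higher.

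Replicate numbers did not pair the libraries: deviations of same-numbered libraries correlated at 0.0289, -0.413 and 0.0798. With the replicate block, 12 nuclear members and 775 genes overall were higher at an unadjusted p under 0.05, and 0 passed the adjusted threshold. Not every library correlated best with its own number.

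Of 1370 values of 69 named genes, 1335 kept sign and side of the threshold. Zeb1 (-1.34) and the retrocopies Rps12-ps3 and Rps27rt passed it with library weights. Signs turned for Sdhb with length bins (-0.0083) and library weights (-0.077), and it ranged from -0.13 without Zeb1Prx1 replicate 2 to 0.41 with a library left out. Sdha was -0.13 at an equal FPKM sum, -0.14 at an equal sum outside the mitochondrial genome, -0.13 with quantile scaling and -0.065 with library weights, and ranged from -0.082 without Zeb1Prx1 replicate 2 to 0.11. Uqcrc2 was -0.15, -0.16 and -0.073 with the same 3 scalings and -0.14 with length bins, and ranged from -0.028 without WT replicate 3 to 0.036, also below 0 without Zeb1Prx1 replicate 1. Ndufs1 was -0.059 and -0.070 with the equal sums, and ranged from -0.00079 without Zeb1Prx1 replicate 2 to 0.15. Uqcrc1 ranged from -0.0060 without Zeb1Prx1 replicate 2 to 0.32. Atp5a1 was -0.12 and Atp5b -0.076 with quantile scaling, mt-Nd1 was 0.045 with library weights, and mt-Co3 was -0.088 with length bins. mt-Co2 was -0.098 with length bins and ranged from -0.030, without WT replicate 1, to 0.39 with a library left out. mt-Atp6 was -0.034 at an equal FPKM sum, -0.045 at an equal sum outside the mitochondrial genome and -0.20 with length bins, and ranged from -0.076 to 0.47, below 0 without Zeb1Prx1 replicate 1 or 3. mt-Nd6 ranged from -0.15 to 0.036, above 0 without Zeb1Prx1 replicate 1 or 3 or WT replicate 1. The causes were not tested. With 3 libraries a genotype, leaving out 1 leaves few degrees of freedom, and depth limits mt-Nd4l, mt-Atp8 and the 6 nuclear members with under 100 fragments in some library.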
